A study of Caenorhabditis elegans with 15 samples.

Results

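The 3 P183L libraries and the 3 wild type (WT) libraries grown in parallel with them were compared, 6 of the 15 libraries of the series. They were taken by their labels, as the P183L libraries and the WT libraries of batch 1. P183L animals carried the missense allele *hy21* of *eff-1*, which replaces a proline of the EFF-1 protein, in the strain BP76. By the study's methods BP76 also carries the integrated array jcIs1 (*ajm-1*::GFP, *unc-29*(+) and the dominant *rol-6*(su1006)). The allele came from a mutagenesis screen, so that the strain is 1 line that is likely to carry further mutations, and by the study's description the allele appears to reduce EFF-1 function only in part and to be temperature sensitive. WT was the laboratory N2 strain, which has neither the allele nor the array, so that allele, array and strain background cannot be told apart here. All animals were grown at 22°C, and embryos freed from gravid adults with bleach were left without food in M9 buffer for 24 h, in which WT hatches and arrests as the first larval stage (L1). By the methods, the suspensions were inspected to make sure that they held no viable embryos still unhatched. PolyA RNA of pooled whole worms was then collected. In a separate assay the study reports an unchanged time to hatch for its *eff-1* mutants. The groups have 3 biological replicates each. The other groups of the series are S441L, a second mutagenesis allele in the same batch, whose strain is listed with the same array, and P37Stop with its own WT in batch 2. They are used only where named, and WT without a batch means WT of batch 1.

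EFF-1 is the fusogen, a membrane protein that merges neighbouring epidermal cells into syncytia from late embryogenesis on. The embryo starts on RNA loaded into the oocyte, then transcribes its own early genes that set the founder lineages, divides until most cells have been born, and elongates inside an apical matrix sheath before it secretes the first cuticle. A hatched larva without food stops in L1, with its divisions paused and with finished muscle, gut and neurons. The lists of genes described here follow this order from oocyte to L1, and then the tissues.

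Library totals were 37649321 to 40080498 counts in P183L and 35858225 to 44870027 in WT. Counts were spread more widely in P183L, whose 100 leading genes held 15.4 to 15.7% of them, than in WT with 26.1 to 27.8%, and the share of mitochondrially encoded genes was 0.110 to 0.177% against 0.278 to 0.464%. The *eff-1* transcript (WBGene00001159, chrII:8346684-8350563 on ce11) was at 30.8, 34.9 and 34.3 CPM in P183L against 32, 27.2 and 30.8 CPM in WT, where CPM are counts scaled to a common library size with the TMM factors of this comparison. The groups overlapped, and the log2 fold change was 0.15 (SE 0.072), with adjusted p = 0.0669 in edgeR's quasi-likelihood test. A missense change need not alter the count of a gene, so this does not check the label. Of the genes on the array, *rol-6*, a cuticle collagen, was at 3.00 TPM (counts per length of exon, scaled to a common total) in P183L, 0.532 TPM in WT and 532 TPM in S441L, whose strain is listed with the same array. TPM are not corrected by the TMM factors, and over the genes tested the ratio of P183L to WT in TPM lay a median of 0.87 log2 units above the log2 fold change, so TPM serve here for levels only. The log2 fold change of *rol-6* over WT was 1.62 (SE 0.27). The log2 difference of P183L from S441L was -8.00 (SE 0.083) for *rol-6*, adjusted p = 9.25e-19 in edgeR. It was -3.16 (SE 0.055) for *unc-29*, an acetylcholine receptor subunit, and -1.99 (SE 0.034) for *ajm-1*, which encodes a junction protein. The counts therefore do not show the array in the libraries labelled P183L at the level seen in those labelled S441L, and why was not tested.

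Most genes moved. Of 15884 genes tested, 6389 were upregulated in P183L (40.2%) and 6379 were downregulated (40.2%), together 80.4%, at an adjusted p below 0.05 in edgeR and a log2 fold change beyond 0.5. The quartiles of the log2 fold change over all genes were -1.74 and 1.33 and the median was 0.02. For single genes the log2 fold change of P183L over WT is given with its standard error (SE). Changes of at least 2-fold were called in 4858 upregulated and 5346 downregulated genes, of at least 8-fold in 1647 and 2224, of at least 32-fold in 159 and 834, and of at least 128-fold in 42 and 246. The largest changes were thus more often decreases. The CPM of the groups did not overlap for 14503 genes (91.3%), and the biological coefficient of variation was 0.0659. With so many calls, a gene called in either direction is the rule, and the lists are read against these shares and this median. The split depended on the scaling. With plain library totals 60.1% of the calls were higher in P183L and the median of all genes was 0.53, and with the library scaled to 5 reference genes (*cdc-42*, *pmp-3*, *ama-1*, *iscu-1* and *eif-3.C*) 38.0% were higher and the median was -0.47. The sign of a gene whose log2 fold change lies within these shifts of 0 depends on the scaling.

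The transcripts of the oocyte and the first cleavages were higher in P183L. Of 30 listed maternal genes, 28 passed the filter on low counts, and 27 of these were upregulated and 1 was downregulated, with a median log2 fold change of 3.49 against 0.02 for all genes. *oma-1*, a zinc finger protein that lets the oocyte mature, was at 63.9, 66.9 and 60.1 CPM in the P183L libraries and 3.69, 3.70 and 2.94 CPM in the WT libraries. *mex-5*, which sets the polarity of the zygote, was at 105, 108 and 108 CPM against 5.21, 3.53 and 5.68 CPM. In both genes every P183L library stood above every WT library, and the log2 fold changes were 4.21 (SE 0.086) and 4.45 (SE 0.10), with adjusted p = 1.34e-13 and 4.25e-13 in edgeR. *puf-3*, a Pumilio-type RNA-binding protein of the germ line, was at 20.7, 20.7 and 21.1 CPM in P183L and at or under 0.883 CPM in each WT library, a log2 fold change of 4.91 (SE 0.17). The eggshell proteoglycan gene *cpg-2* changed by a log2 fold of 4.85 (SE 0.16) and the translational regulator *pos-1* by 3.60 (SE 0.067). The exception was *skn-1*, whose protein specifies mesendoderm in the embryo and acts in stress responses of the larva. It fell from 528, 537 and 542 CPM in WT to 254, 247 and 245 CPM in P183L, a log2 fold change of -1.11 (SE 0.037).

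Genes first transcribed by the embryo itself had a higher median still. Of 52 listed early zygotic genes 50 were tested, 46 were upregulated and 4 downregulated, with a median log2 fold change of 4.16, or 4.12 with the 4 genes that had no count in WT put at their lower bound. The median level of these 50 genes was 13.9 TPM in P183L and 0.717 TPM in WT. At such WT levels a gene can pass the filter through the P183L libraries alone, which favours calls higher in P183L. Among the sdz genes of the list, 11 had TPM above 1 in every library, 9 of them upregulated and 2 downregulated. *end-1*, the GATA factor that starts the endoderm, was at 7.73, 8.28 and 8.94 CPM in P183L against 0.606, 0.408 and 0.0265 CPM in WT. *pes-10*, transcribed in the earliest embryonic nuclei, was at 33.9, 32.5 and 32.1 CPM against 1.13, 1.16 and 1.41 CPM. The groups did not overlap in either gene, and edgeR gave log2 fold changes of 4.60 (SE 0.38) and 4.73 (SE 0.095), with adjusted p = 1.17e-07 and 1.16e-13. *tbx-37*, a T-box factor of the anterior lineage, changed by a log2 fold of 4.49 (SE 0.26) and *ceh-51*, a homeobox factor of the mesodermal MS lineage, by 3.30 (SE 0.23). *end-3*, which acts with *end-1*, was at 2.41, 2.45 and 1.74 CPM in P183L against 1.13, 0.476 and 0.451 CPM in WT, and had a log2 fold change of 1.67 (SE 0.33).

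The largest of the 4 decreases in this list was that of *sdz-24*. This gene, named for its dependence on SKN-1 in the zygote, was at 3.79, 3.19 and 3.64 CPM in P183L against 733, 690.2 and 708 CPM in WT. The P183L libraries held it at under 4 CPM throughout, and the log2 fold change was -7.65 (SE 0.065), adjusted p = 6.42e-16 in edgeR. *sdz-8* fell by 3.80 on the log2 scale (SE 0.064). *med-2*, a GATA factor of the mesendoderm, was called lower at 0.293, 0.112 and 0.312 CPM in P183L against 1.13, 0.815 and 0.849 CPM in WT. With *sdz-24* among the members the summed level of the list was 828 to 844 CPM in P183L and 858 to 916 CPM in WT, and 46 of its genes rose.

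The factors that assign tissues in the middle of embryogenesis were mostly higher. Of 35 tested, 28 were upregulated, 2 downregulated and 5 not called, with a median log2 fold change of 1.92. *tbx-8*, a T-box factor needed for epidermal and muscle morphogenesis, was at 22.5, 21.1 and 20.9 CPM in P183L against 0.468, 0.510 and 0.637 CPM in WT, without overlap (log2 fold change 5.31, SE 0.12). Its neighbour and paralog *tbx-9* changed by a log2 fold of 4.91 (SE 0.11). *hlh-14*, a proneural factor of dividing neuroblasts, was at 20.5, 23.2 and 23.3 CPM against 1.13, 0.849 and 1.33 CPM, a log2 fold change of 4.32 (SE 0.13). The log2 fold change of *elt-1*, the GATA factor of epidermal fate, was 2.17 (SE 0.045). That of *pha-4*, the FoxA factor of the pharynx, was 1.47 (SE 0.047), and those of *hlh-1*, the MyoD homolog of body wall muscle, and *lin-26*, which keeps epidermal cells epidermal, were 1.29 (SE 0.067) and 0.92 (SE 0.047). The call of *lin-26* was lost with the 5 reference genes (0.43). *elt-2*, the GATA factor of the whole life of the intestine, was at 34.7, 35.2 and 33.6 CPM in P183L against 32.9, 31.5 and 32.1 CPM in WT and was not called (log2 fold change 0.10, SE 0.051, adjusted p = 0.0759 in edgeR). Of 6 Hox genes 1 was upregulated, 4 were downregulated and *lin-39* of the mid-body was not called (0.43). The anterior gene *ceh-13* changed by a log2 fold of 2.40 (SE 0.054), while *mab-5*, *egl-5*, *nob-1* and *php-3* of the posterior were lower, with log2 fold changes of -1.76, -1.90, -1.29 and -2.12.

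The genes that copy and divide the genome rose almost without exception. All 30 DNA replication genes tested and 33 of 34 mitosis genes were upregulated and none was downregulated. The lists had medians of 3.18 and 3.46 on the log2 scale. The summed level of the replication genes was 3910.0 to 3963 CPM in P183L and 495 to 516 CPM in WT. *mcm-7*, a subunit of the replicative helicase, was at 571, 564 and 569 CPM against 21, 19.6 and 21.4 CPM. *cyb-3*, a B-type cyclin, was at 906, 890.4 and 884 CPM against 41, 38.9 and 38.7 CPM. Both genes were far apart between groups, with log2 fold changes of 4.78 (SE 0.047) and 4.50 (SE 0.045), and adjusted p = 7.92e-16 and 8.58e-16 in edgeR. The PCNA gene *pcn-1* changed by a log2 fold of 3.25 (SE 0.043), *cdk-1* by 3.64 (SE 0.047) and *air-2*, the Aurora B kinase, by 3.93 (SE 0.077). *cki-1*, an inhibitor of the cell cycle kinases that is needed for arrest of starved L1 larvae, was also higher, at 119, 125 and 116 CPM against 51.7, 44.9 and 54.9 CPM (log2 fold change 1.24, SE 0.064).

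Of 48 histone genes tested, 32 were upregulated and 8 downregulated, with a median log2 fold change of 1.45. *his-24*, a linker histone, was at 1584, 1640.4 and 1769 CPM in P183L against 261, 295 and 270.0 CPM in WT (log2 fold change 2.60, SE 0.058). *his-71*, which encodes the H3.3 variant laid down outside S phase, went the other way, from 356, 363 and 377 CPM in WT to 108, 103 and 95 CPM in P183L (log2 fold change -1.84, SE 0.05). *his-37* fell by 3.27 on the log2 scale. Replication-dependent histone genes are near-identical copies whose mRNA mostly lacks a polyA tail, so polyA libraries give their levels with little certainty.

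**Figure D1:**
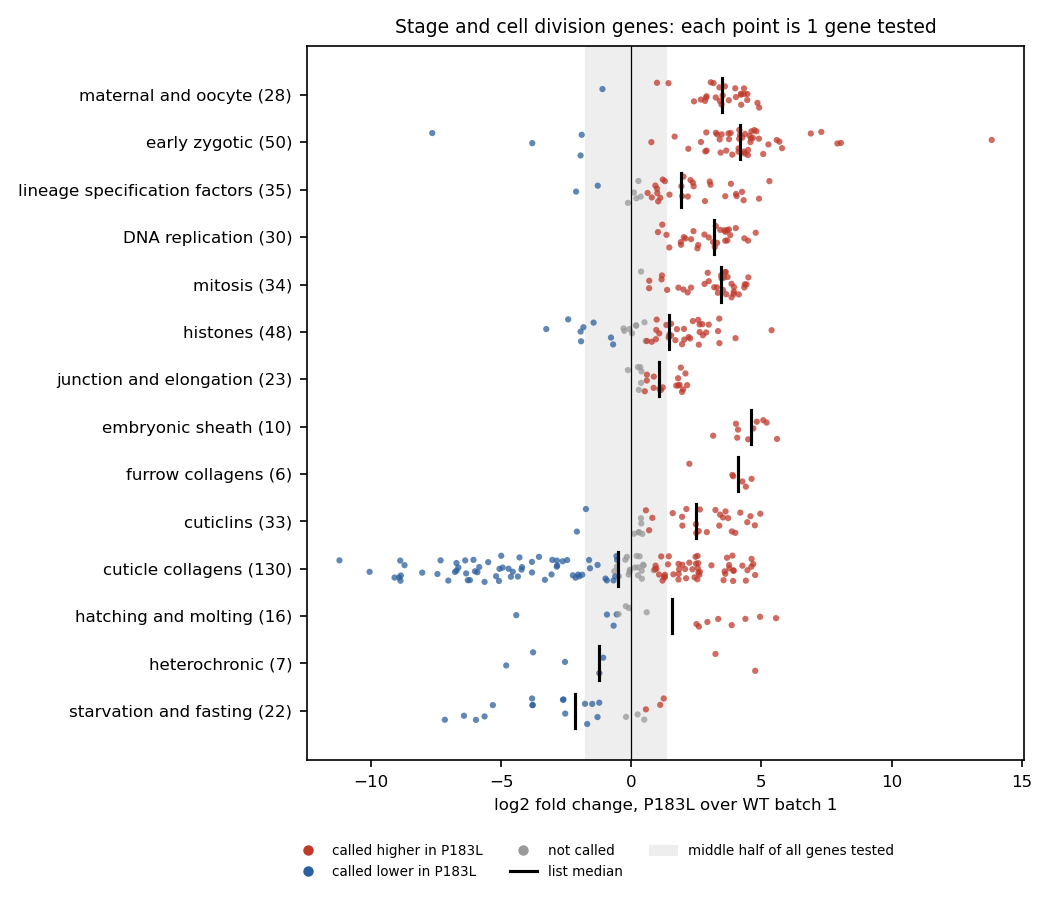
Log2 fold change of P183L over WT batch 1 (x axis) for each gene tested of the stage and cell division lists (y axis, genes tested in brackets), with called genes in colour, the list median as a black bar and the range between the quartiles of all 15884 genes (-1.74 to 1.33) as a grey band. The medians of 10 of the 14 lists lie to the right of the band, those of junction and elongation, cuticle collagens and heterochronic genes lie in it and that of the starvation list lies to the left, and the point at 13.8 is *sdz-25*, which had no count in WT under this gene ID, so that its fitted value is no bound.

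The embryo elongates by contraction of its epidermis, and the genes of this step were moderately higher. Of 23 junction and elongation genes 17 were upregulated, none was downregulated and 6 were not called, with a median log2 fold change of 1.08. *hmr-1*, the cadherin of the epidermal junctions, was at 870.1, 877 and 924 CPM in P183L against 195, 226 and 211 CPM in WT. Its partner *hmp-1*, an alpha-catenin, was at 368, 367 and 370.1 CPM against 87.5, 78.4 and 83.7 CPM. The groups did not overlap, with log2 fold changes of 2.08 (SE 0.055) and 2.14 (SE 0.045) (adjusted p = 1.54e-12 and 1.64e-13 in edgeR). The non-muscle myosin gene *nmy-1* changed by a log2 fold of 1.99 (SE 0.039) and the spectrin gene *sma-1* by 1.80 (SE 0.039). *vab-10*, the spectraplakin that ties epidermis to muscle, was at 1186, 1196 and 1256 CPM in P183L against 891, 1012 and 964 CPM in WT and was under the fold limit (log2 fold change 0.34, SE 0.051, or -0.15 with the 5 reference genes).

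The apical sheath, an extracellular matrix that holds the elongating embryo in shape before there is a cuticle, was higher in every gene listed. All 10 sheath genes were upregulated, with log2 fold changes from 3.15 to 5.60 and a summed level of 5598 to 5604 CPM against 217 to 221 CPM in WT. *noah-1*, a zona pellucida domain protein of the sheath, was at 1643, 1656 and 1634 CPM in P183L against 64.9, 60.0 and 66.4 CPM in WT. *fbn-1*, a fibrillin-like protein, was at 607, 592 and 623 CPM against 12.8, 12.2 and 12.5 CPM. *sym-1*, a leucine-rich repeat protein, was at 709, 705 and 689 CPM against 20.5, 21.9 and 20.3 CPM. All 3 were separated by over an order of magnitude, with log2 fold changes of 4.69 (SE 0.051), 5.60 (SE 0.048) and 5.07 (SE 0.048) and adjusted p = 1.30e-15, 6.42e-16 and 7.42e-16 in edgeR. *let-4* changed by a log2 fold of 5.20 (SE 0.058), and *let-653*, a zona pellucida protein of narrow tubes, by 3.15 (SE 0.048).

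Cuticle collagens moved in both directions. The 6 furrow collagens, which pattern the annuli, were all upregulated, with a median log2 fold change of 4.09. *dpy-7* was at 227, 230.2 and 244 CPM in P183L against 17.5, 15.9 and 14 CPM in WT, a log2 fold change of 3.89 (SE 0.069), and *dpy-10* changed by a log2 fold of 4.40 (SE 0.06). *dpy-17*, a collagen of body shape, was at 3366, 3338 and 3660.3 CPM against 213, 263 and 204 CPM (log2 fold change 3.93, SE 0.09), and was the most abundant gene of the P183L libraries at 6051 TPM. *dpy-14* and *sqt-3*, the third and the fifth most abundant, changed by a log2 fold of 3.93 (SE 0.073) and 3.61 (SE 0.076).

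Over the whole class of 130 tested cuticle collagens 49 were upregulated and 63 downregulated, from -11.21 to 4.76, with a median log2 fold change of -0.51. The decreases were the deeper ones. *col-42* was at 2.85, 2.59 and 3.28 CPM in P183L against 2670.1, 3854 and 2754 CPM in WT, where replicate 2 was the highest. *col-103* was at 2.16, 2.36 and 2.54 CPM against 1108, 1574 and 1181 CPM. Both fell by about 3 orders of magnitude, with log2 fold changes of -10.06 (SE 0.18) and -9.10 (SE 0.16) (adjusted p = 4.19e-14 and 3.86e-14 in edgeR). *col-80* was left with 5 to 11 counts per library in P183L against 378, 488 and 400.2 CPM in WT, a log2 fold change of -11.21 (SE 0.17).

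The cuticlins, zona pellucida proteins of the cuticle, were mostly higher, 25 of 33 tested against 2 lower, with a median log2 fold change of 2.50. *cutl-25* changed by a log2 fold of 4.96 (SE 0.11), *cutl-9* by 4.75 (SE 0.12) and *cutl-28* by 4.58 (SE 0.077). *cut-3*, a cuticlin of the embryo and the L1 alae, was at 628, 615 and 605 CPM against 80.3, 84.5 and 82.7 CPM (log2 fold change 2.90, SE 0.041). Hatching and molting genes were divided, 8 of 16 upregulated and 4 downregulated. *hch-1*, the protease that softens the eggshell at hatching, was at 365, 359 and 366 CPM in P183L against 35.4, 38.5 and 34.1 CPM in WT (log2 fold change 3.34, SE 0.049, adjusted p = 8.47e-15 in edgeR). The molting gene *mlt-10* was at 188 ± 2.62 CPM in P183L against 3.97 ± 0.214 CPM in WT (mean ± SD, n = 3). *mlt-11*, a protease inhibitor, was at 1097 ± 17.1 CPM against 35.6 ± 2.54 CPM (mean ± SD, n = 3). Their log2 fold changes were 5.56 (SE 0.054) and 4.95 (SE 0.058). *nhr-23*, the nuclear receptor that drives the molting cycle, changed by a log2 fold of 2.60 (SE 0.079) and *acn-1*, an angiotensin-converting enzyme homolog, by 4.38 (SE 0.05). Against these, *mlt-7*, a peroxidase that cross-links cuticle, was at 14.7, 15.1 and 16.9 CPM in P183L against 334, 330.1 and 335 CPM in WT (log2 fold change -4.42, SE 0.054).

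**Figure D2:**
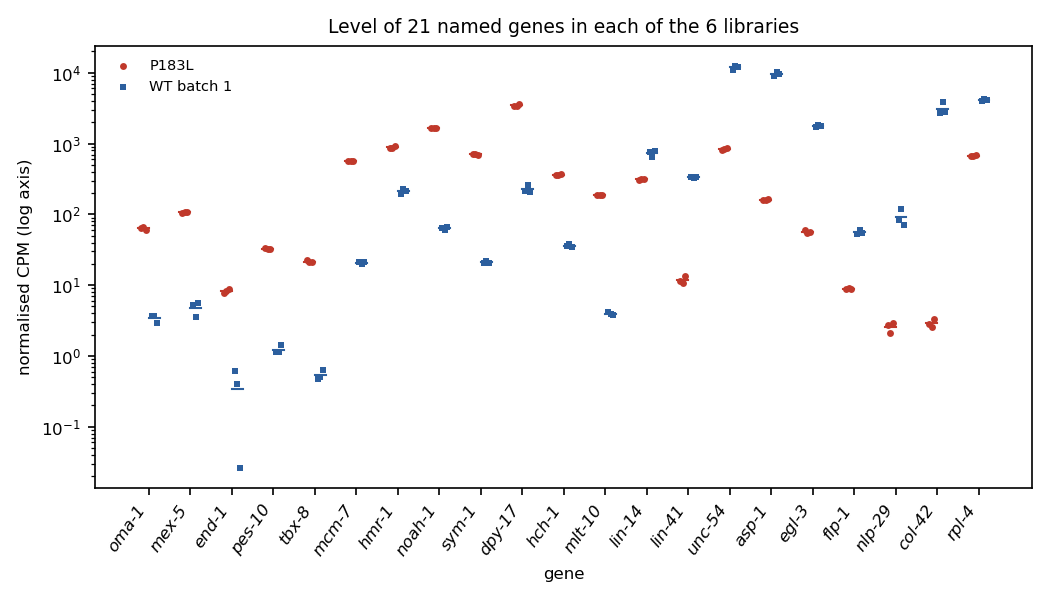
Normalised CPM on a log axis of 21 genes, in order from oocyte to larva and tissue, with each P183L library as a red circle, each WT batch 1 library as a blue square and the group mean as a short line. The P183L points lie above the WT points from *oma-1* to *mlt-10* and below them from *lin-14* on (*lin-14*, *lin-41*, *unc-54*, *asp-1*, *egl-3*, *flp-1*, *nlp-29*, *col-42* and *rpl-4*), no gene shown has overlapping groups, and the lowest point, at 0.0265 CPM, is a WT library of *end-1*.

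The heterochronic genes, which time larval fates, were split 2 higher to 5 lower. *lin-14*, whose protein marks the first larval stage, was at 303, 315 and 317 CPM in P183L against 759.7, 655 and 774 CPM in WT. *lin-28*, also of the early stages, was at 127, 128 and 129.9 CPM against 258, 289.6 and 266 CPM. The groups did not overlap, with log2 fold changes of -1.23 (SE 0.059) and -1.08 (SE 0.046). *lin-41*, a TRIM-NHL protein, was at 11.5, 10.6 and 13.5 CPM against 336, 324 and 337 CPM and fell further (log2 fold change -4.81, SE 0.07, adjusted p = 8.75e-15 in edgeR). *lin-29*, the zinc finger factor of the switch to adult epidermis, changed by a log2 fold of -3.77 (SE 0.12) and *lin-46* by -2.55 (SE 0.12). *hbl-1*, a hunchback homolog also active in the embryo, rose to 1253, 1285 and 1290.3 CPM from 141, 118 and 147 CPM, and *lin-42*, the Period homolog that cycles with the molts, changed by a log2 fold of 4.76 (SE 0.087).

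Genes of the starved L1 were lower. Of 22 starvation and fasting genes 16 were downregulated, 3 upregulated and 3 not called, with a median log2 fold change of -2.16. *hsp-12.6*, a small heat shock protein of long-lived and arrested animals, was at 0.440, 0.491 and 0.468 CPM in P183L against 76, 62.8 and 62.7 CPM in WT. *lipl-5*, a lysosomal lipase induced by fasting, was at 1.42, 1.52 and 1.20 CPM against 109, 129.7 and 120.1 CPM. Both were nearly lost, with log2 fold changes of -7.16 (SE 0.12) and -6.43 (SE 0.10) and adjusted p = 3.40e-14 and 1.07e-14 in edgeR. *daf-16*, the FOXO factor needed to survive L1 arrest, changed by a log2 fold of -1.30 (SE 0.05), and its target *sod-3* by -2.54 (SE 0.18). *icl-1*, the glyoxylate cycle enzyme used in embryos and in starvation, was at 1274, 1277 and 1307 CPM in P183L against 867, 946 and 918 CPM in WT, on the edge of the fold limit and not called (log2 fold change 0.50, SE 0.043).

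Peptides secreted by the larval epidermis against microbes were also lower, 13 of 15 tested, with 1 upregulated and a median log2 fold change of -3.13. *nlp-29* was at 2.70, 2.14 and 2.97 CPM in P183L against 82.9, 119 and 70.2 CPM in WT, where the spread was wide but every library was above P183L (log2 fold change -5.12, SE 0.20). *cnc-11* was at 0.398, 0.357 and 0.335 CPM in P183L against 24.5, 25.5 and 20.4 CPM in WT. *nlp-28* was left with 4, 1 and 3 counts in the P183L libraries against 85.4, 116 and 74 CPM in WT.

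The epidermal regulators themselves were not lost. Of 13 tested 8 were upregulated and 2 downregulated, with a median log2 fold change of 0.79. *bed-3*, a zinc finger factor of seam cell division and molting, was at 71.1, 71.4 and 73.3 CPM against 5.65, 6.22 and 6.63 CPM (log2 fold change 3.54, SE 0.066). *aff-1*, the second fusogen of the worm, was at 29.6, 29.6 and 32.6 CPM in P183L against 3.88, 3.40 and 4.17 CPM in WT, a log2 fold change of 3.00 (SE 0.088) (adjusted p = 3.82e-12 in edgeR). *elt-3*, the GATA factor of differentiated epidermis, was at 74.7, 74.4 and 71.5 CPM against 139, 129.6 and 139.8 CPM (log2 fold change -0.89, SE 0.043), with no call against WT of batch 2 (-0.21) or with plain library totals (-0.39), and the seam regulator *rnt-1* changed by a log2 fold of -1.58 (SE 0.10). Among 71 hedgehog-related and patched-related genes, many of which are expressed in epidermis, 47 were upregulated and 17 downregulated, with a median log2 fold change of 1.98. The log2 fold changes of *ptr-25*, *wrt-8*, *wrt-2* and *ptr-4* were 4.72 (SE 0.048), 4.84 (SE 0.12), 3.74 (SE 0.058) and 3.49 (SE 0.042), while *ptr-8* went from 162, 151 and 182 CPM in WT to 2.64, 2.39 and 2.63 CPM in P183L.

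Most genes of body wall muscle were lower, and some were higher. In RNA of whole worms, fewer cells of a type and less RNA per cell cannot be told apart, nor can a change in every animal of the pool and a change in some of them. Of 27 body wall muscle genes 17 were downregulated and 6 upregulated, with a median log2 fold change of -1.37. *unc-54*, the major myosin heavy chain, was at 818, 837 and 856 CPM in P183L against 11094, 12615 and 12233 CPM in WT. *tnt-2*, a troponin T, was at 24.2, 22.5 and 24.6 CPM against 585, 631 and 601 CPM. The P183L libraries were lower in both by over 10-fold, with log2 fold changes of -3.84 (SE 0.059) and -4.67 (SE 0.053) (adjusted p = 1.28e-14 and 1.43e-15 in edgeR). The myosin light chain gene *mlc-2* changed by a log2 fold of -4.01 (SE 0.05), paramyosin (*unc-15*) by -2.81 (SE 0.054) and the minor myosin gene *myo-3* by -1.52 (SE 0.044), which was -0.38 and not called against WT of batch 2. The 6 that rose encode parts of the integrin attachment of the sarcomere, but other attachment genes did not rise, with *unc-98* called lower (-0.73) and *deb-1* not called (0.17), and the contractile genes *tni-1* (-0.28) and *tnt-3* (0.36) were not called. The 6 are the beta-integrin *pat-3* (1.71), the kindlin *unc-112* (1.38), the integrin-linked kinase *pat-4* (1.15), the PINCH homolog *unc-97* (1.01), *unc-95* (0.79) and the alpha-integrin *pat-2* (0.78), with the log2 fold change in brackets. The calls of *unc-95* and *pat-2* were lost with the 5 reference genes (log2 fold changes 0.29 and 0.29), and that of *unc-95* also against WT of batch 2 (0.40). *pat-3* was at 553, 553 and 565 CPM in P183L against 167, 171 and 173 CPM in WT. In the pharynx *myo-2*, its myosin, was lower (log2 fold change -1.17, SE 0.044) and *ceh-22*, an early factor of pharyngeal muscle, was higher, at 27.4, 24.9 and 23.3 CPM against 3.17, 2.51 and 3.40 CPM (log2 fold change 3.04, SE 0.11).

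Digestive genes of the intestine were lower, with a median further from 0 than that of muscle. Of 24 tested 18 were downregulated and 4 upregulated, with a median log2 fold change of -2.26. The summed level of the list was 1678 to 1717 CPM in P183L and 21970.0 to 24750.0 CPM in WT. *asp-1*, an aspartic protease of the gut lumen and lysosomes, was at 162, 159 and 165 CPM against 9008, 10398 and 9732 CPM. *asp-6* was at 62.5, 60.3 and 62.3 CPM against 4638, 5003 and 4727 CPM. In WT these were among the most highly expressed genes, and in P183L they were lower by 60.0-fold and 77.6-fold (adjusted p = 1.37e-15 and 6.42e-16 in edgeR). *asp-5* changed by a log2 fold of -4.97 (SE 0.06), the gut esterase *ges-1* by -1.84 (SE 0.065) and the microvillar actin *act-5* by -0.76 (SE 0.045). The peptide transporter *pept-1* and the intermediate filament *ifd-2* were higher, with log2 fold changes of 1.81 (SE 0.055) and 1.71 (SE 0.063), but against WT of batch 2 that of *pept-1* was 0.28 and was not called. The call of *act-5* was lost with plain library totals (-0.25).

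Genes of working neurons were lower, and those of cilia were not. Of 20 pan-neuronal genes 18 were downregulated and 1 upregulated, with a median log2 fold change of -1.54. *egl-21*, which trims neuropeptide precursors, was at 34.7, 34.8 and 35.2 CPM in P183L against 1342, 1415 and 1388 CPM in WT. *egl-3*, which cuts them, was at 59.7, 55 and 56.5 CPM against 1707, 1814 and 1767 CPM. These were the deepest decreases of the list, with log2 fold changes of -5.31 (SE 0.047) and -4.95 (SE 0.052) (adjusted p = 6.42e-16 and 1.12e-15 in edgeR). Of the synaptic vesicle genes, the complexin *cpx-1* changed by a log2 fold of -4.05 (SE 0.077), the synaptotagmin *snt-1* by -2.13 (SE 0.055) and *rab-3* by -1.15 (SE 0.05). *syd-2*, a liprin that organises the assembly of presynaptic sites, was the only member upregulated, at 216, 214 and 209 CPM against 67.6, 68.1 and 67.5 CPM (log2 fold change 1.65, SE 0.036).

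Of 17 transmitter genes 11 were downregulated and 5 upregulated. The GABA enzyme *unc-25* changed by a log2 fold of -3.37 (SE 0.055), the glutamate transporter *eat-4* by -2.62 (SE 0.073) and the acetylcholine transporter *unc-17* by -2.19 (SE 0.057). The tyramine enzyme *tdc-1* was higher, at 21.7, 20.9 and 20.9 CPM against 4.60, 5.10 and 4.88 CPM, as was the serotonin enzyme *tph-1*, at 3.54, 3.01 and 3.55 CPM against 0.881, 0.442 and 0.451 CPM, although against WT of batch 2 the log2 fold change of *tph-1* was 0.14 and not called. Neuropeptides were the most uniformly downregulated of the tissue lists, 93 of 98 tested, with 1 upregulated (*nlp-60*) and a median log2 fold change of -3.39. The neuropeptide list also holds peptides of the epidermal antimicrobial list, such as *nlp-28* and *nlp-29*, so their decreases are counted in both lists. Its summed level was 327 to 348 CPM in P183L and 8025 to 8265 CPM in WT. *flp-1* was at 8.79, 9.15 and 8.90 CPM against 52.1, 60.7 and 54 CPM (log2 fold change -2.63, SE 0.07). *nlp-21* changed by a log2 fold of -5.42 (SE 0.12) and *nlp-20* by -8.36 (SE 0.13). Insulin-like peptides fell in 15 of 21 and rose in 3, with *ins-17* at 2.64, 2.50 and 2.23 CPM in P183L against 187, 189 and 195 CPM in WT, and *ins-34* in the other direction at 30.6, 29.1 and 29.9 CPM against 1.76, 1.80 and 1.03 CPM.

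Of 25 ciliary and sensory neuron genes 17 were upregulated and 2 downregulated, with a median log2 fold change of 0.66. *dyf-7*, a zona pellucida protein that anchors dendrites in the embryo, was at 78.3, 79.1 and 76.6 CPM in P183L against 3.36, 3.16 and 2.94 CPM in WT (log2 fold change 4.63, SE 0.066, adjusted p = 7.64e-15 in edgeR). The intraflagellar transport gene *osm-6* changed by a log2 fold of 0.65 (SE 0.087), a call lost with the 5 reference genes (0.16) and against WT of batch 2 (0.48), while the ciliary dynein *che-3*, at 49.3, 48.7 and 51.3 CPM in P183L against 48.1, 37.5 and 45.7 CPM in WT, was not called, and the kinesin *osm-3* fell to 6.89, 6.98 and 6.51 CPM from 20.2, 19.5 and 18.2 CPM. Of 8 glial genes 3 were upregulated and 5 downregulated. *daf-6*, which shapes the channels of glia around dendrites, and *ptr-10* had log2 fold changes of 3.36 (SE 0.077) and 4.14 (SE 0.074), and *fig-1*, of amphid sheath glia, had -2.70 (SE 0.063). Germ line and P granule genes were upregulated in 18 of 20, with a median log2 fold change of 3.17. *pgl-1*, a P granule scaffold, was at 32.3, 33.6 and 32.7 CPM against 1.93, 2.45 and 2.04 CPM (log2 fold change 3.95, SE 0.089), and *meg-1*, which segregates P granules in the early embryo, at 34.8, 36.7 and 37.4 CPM against 1.98, 0.714 and 1.75 CPM (log2 fold change 4.57, SE 0.17). The maternal repressor *gld-1* changed by a log2 fold of 4.44 (SE 0.074), and *csr-1* and *fbf-2* were the downregulated pair, with log2 fold changes of -1.26 (SE 0.052) and -1.54 (SE 0.17), of which *fbf-2* was not called against WT of batch 2 (-0.53). Oocytes and germ cells share many transcripts, so the increases of the maternal list and of this one are not separate observations.

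**Figure D3:**
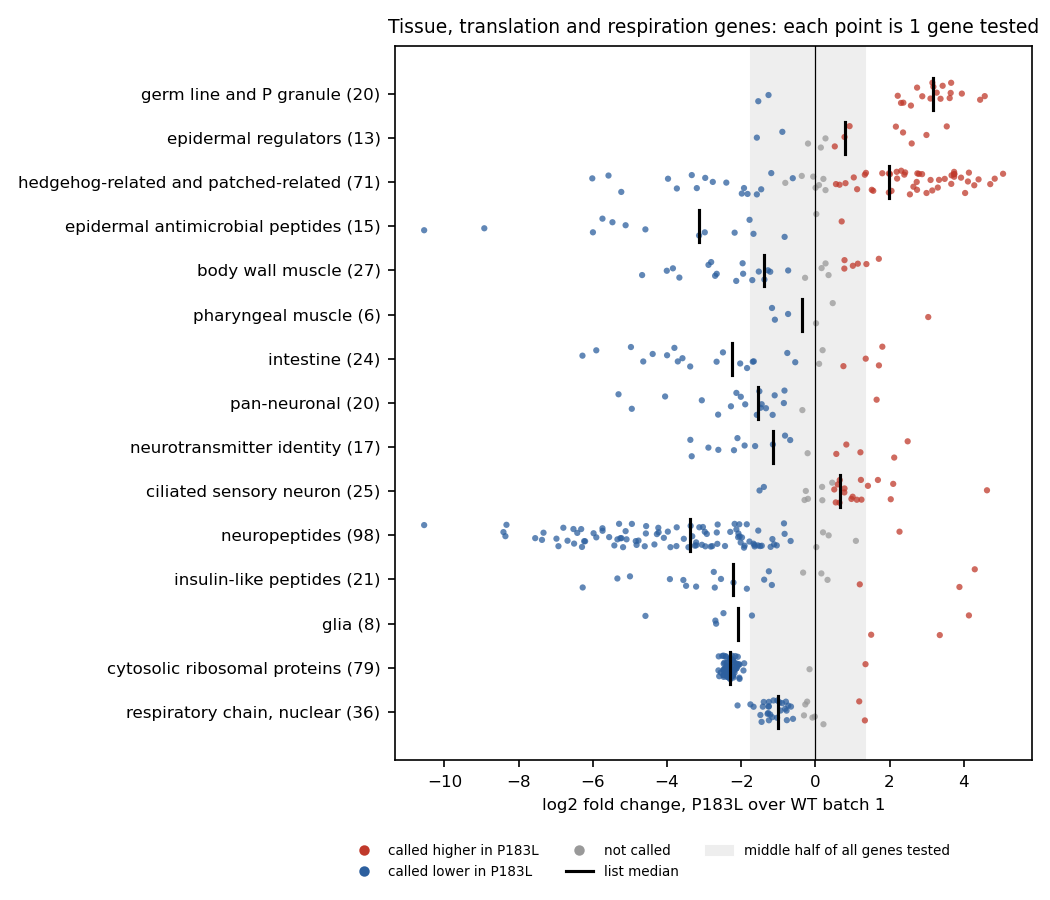
Log2 fold change of P183L over WT batch 1 (x axis) for each gene tested of the tissue, translation and respiration lists (y axis, genes tested in brackets), drawn as for the stage lists with list medians as black bars and the range between the quartiles of all 15884 genes as a grey band. The neuropeptide, epidermal antimicrobial, intestine and insulin-like medians lie left of the band together with those of the glia and ribosomal protein lists, the germ line and hedgehog-related medians lie right of it, and the point at 1.35 in the ribosomal protein row is *rpl-41.1*.

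Ribosomal proteins fell as a block. Of 79 cytosolic ribosomal protein genes tested 77 were downregulated, 1 was upregulated and 1 was not called, with a median log2 fold change of -2.30. *rpl-4* was at 672, 664 and 684 CPM in P183L against 3927, 4283 and 4079 CPM in WT, and *rps-8* at 516, 511 and 511 CPM against 3101, 3229 and 3079.8 CPM. Their log2 fold changes were -2.61 (SE 0.047) and -2.61 (SE 0.042). The upregulated member, *rpl-41.1*, is next to *rpl-41.2* on chromosome I and encodes nearly the same short peptide, so that the division of reads between them is uncertain. *rpl-41.1* changed by a log2 fold of 1.35 (SE 0.072) and *rpl-41.2* by -2.29 (SE 0.087). Most elongation factors were lower, with *eef-1A.1* at 3742, 3754 and 3915 CPM against 13913, 16025 and 14694 CPM (log2 fold change -1.97, SE 0.057) and a log2 fold change of -2.30 (SE 0.056) for *eef-2*, while *eef-1A.2* was called higher (0.70). The initiation factor *inf-1*, an eIF4A, rose to 557, 554 and 581 CPM from 90.9, 96.1 and 94.9 CPM (log2 fold change 2.59, SE 0.042), and the 18 translation factors were split 7 higher to 9 lower. Of 36 nuclear genes of the respiratory chain 28 were downregulated and 2 upregulated, with a median log2 fold change of -0.99. Those of the ATP synthase gene *atp-2* and the cytochrome c1 gene *cyc-1* were -1.39 (SE 0.048) and -1.13 (SE 0.048). All 12 protein genes of the mitochondrial genome were downregulated, with a median log2 fold change of -1.90.

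Inducible chaperones were higher. Of 11 heat shock gene IDs tested 8 were upregulated and 3 were not called. *hsp-16.1* (log2 fold changes 0.71 and 2.38) and *hsp-16.48* (2.12 and 6.83) each have more than 1 ID, between which reads may be divided. *F44E5.5*, an inducible HSP70, was at 780.1, 787 and 786 CPM in P183L against 64, 60.7 and 82.2 CPM in WT. *F44E5.4*, a near copy of it with which reads may be shared, was at 618, 550.2 and 543 CPM against 52.2, 49.3 and 33.7 CPM. As counted, their log2 fold changes were 3.51 (SE 0.093) and 3.67 (SE 0.13), and that of the small heat shock gene *hsp-16.2* was 1.88 (SE 0.068). *hsp-1* and *hsp-90*, the chaperones of unstressed cells, had log2 fold changes of 0.42 and -0.40, within the shift that the scaling alone gives, and were not called. Of the 33 proteasome genes 9 were upregulated and 7 downregulated, with a median log2 fold change of 0.27, or -0.23 with the 5 reference genes.

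Grouped by gene name, families of at least 20 tested genes numbered 66. The fbxb family of F-box proteins stood at the top, with 99 of 101 members upregulated (98.0% against 40.2% of all genes) and a median log2 fold change of 4.03. Of its 101 genes 57 are on chromosome II. The only one called lower was *fbxb-53* (log2 fold change -1.05, SE 0.076), which was above WT of batch 2 by 0.84 log2 units. The nucleoporins (npp) followed with 92.3% of 26, the sdz family with 90.9% of 33, the SET domain genes (set) with 86.2% of 29, the fbxc F-box family with 80.0% of 40 and the dpy genes with 18 of 24. At the other end all 30 flp neuropeptide genes and all 31 small ribosomal subunit genes (rps) were downregulated, against 40.2% of all genes. The large subunit genes (rpl) were lower in 95.7% of 46, the glutathione S-transferases (gst) in 95.2% of 42, the FMRFamide-like peptide receptors (frpr) in 19 of 20 and the nlp peptides in 92.6% of 68. These 12 families kept their direction under every scaling, filter and control tried. A gene can pass the filter on low counts through the libraries of 1 group alone, which favours calls in the direction of that group. Among genes with TPM above 1 in every library, 24 of 25 fbxb, 9 of 11 sdz and 14 of 17 fbxc genes were upregulated. Of all genes under that filter, 4394 of 11320 were. Several F-box and sdz genes are close paralogs between which reads may have been divided.

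**Figure D4:**
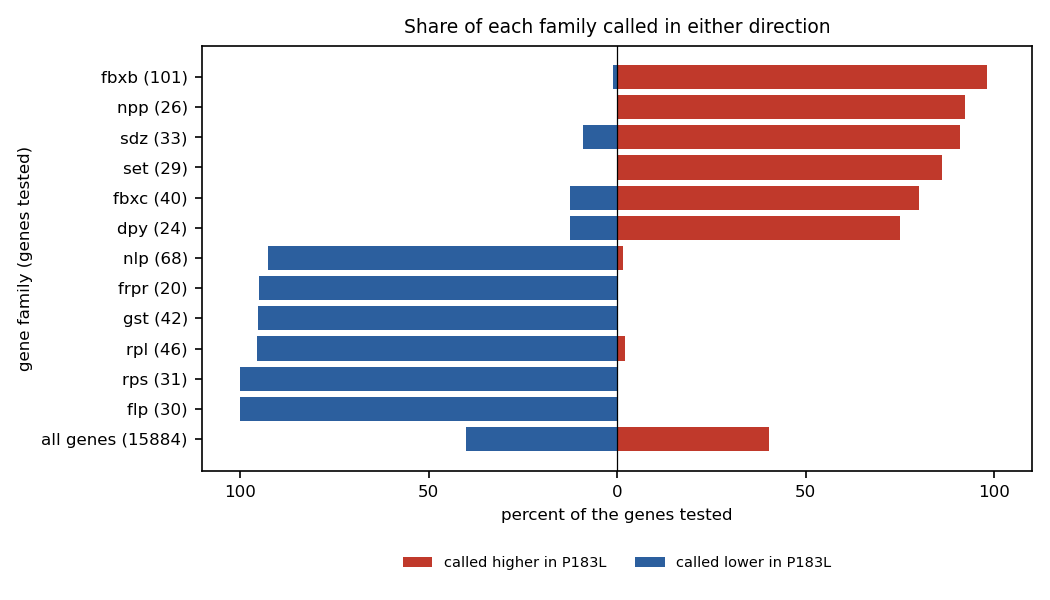
Percent of the tested genes of a family called higher (red, to the right) or lower (blue, to the left) in P183L, for the 6 families with the highest share in each direction and for all 15884 genes (40.2% in each direction), with the number of genes tested in brackets. The fbxb bar reaches 98.0% to the right and the flp and rps bars 100% to the left.

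The most abundant transcripts changed places. By TPM, which corrects for transcript length, the 5 leading genes of P183L were *dpy-17*, *hmg-1.1*, *dpy-14*, *eef-1A.1* and *sqt-3*, and those of WT were *eef-1A.1*, *ant-1.1*, *asp-1*, *tts-1* and *rpl-41.2*. *hmg-1.1*, a chromatin protein, was at 1865, 1795 and 1724 CPM in P183L against 624, 588 and 606 CPM in WT (log2 fold change 1.57, SE 0.045). *ant-1.1*, the mitochondrial ATP carrier, was at 1249.8, 1243 and 1226 CPM against 11485, 12199 and 12149 CPM (log2 fold change -3.27, SE 0.047). *tts-1*, a long noncoding RNA found on ribosomes, was at 20.6, 22.4 and 21.9 CPM against 4799, 3546 and 4326 CPM (log2 fold change -7.61, SE 0.12), so that it left the head of the list.

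Of the genes with the largest changes beyond the lists, *C49F5.7* was left with 9, 10 and 6 counts in P183L against 455, 503 and 418 CPM in WT. *far-7*, a fatty acid and retinol binding protein, was at 1.15, 0.959 and 1.00 CPM against 887, 969 and 827 CPM (log2 fold change -9.74, SE 0.094), and *epic-2* at 0.628, 1.63 and 1.14 CPM against 785, 954 and 937 CPM (log2 fold change -9.63, SE 0.16). *F14D2.19* changed by a log2 fold of -9.32 (SE 0.084). Of the 15 largest increases, 5 belonged to genes with more than 1 ID or with no count in WT, and the other 10 had log2 fold changes of 5.30 to 5.63. *F44F1.6* was at 80.4, 82.7 and 83 CPM in P183L against 1.76, 1.597 and 1.59 CPM in WT (log2 fold change 5.63, SE 0.071). *fkh-3*, a forkhead factor, was at 39, 38.1 and 37.6 CPM against 0.744, 1.02 and 0.769 CPM (log2 fold change 5.52, SE 0.10), and *mltn-3*, *F17A2.13* and *Y73C8C.8* changed by a log2 fold of 5.53 (SE 0.23), 5.58 (SE 0.13) and 5.36 (SE 0.10). *fbn-1*, *mlt-10* and *tbx-8* were in this set too.

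A few genes were seen in only 1 of the 2 groups compared. By gene ID, 5 genes with a mean of at least 100 counts in P183L had no count in WT and 13 with such a mean in WT had none in P183L. Some of them share a name with another gene ID, and the counts of such copies fell on 1 ID or the other from library to library. *trpl-3* is such a case, with 389, 456 and 444 counts in P183L on 1 ID and 382, 290 and 438 counts in WT divided between both, so that its sums overlap. With the copies of a name added up, 2 genes were gained and 10 lost. *F56A4.3* (WBGene00018911, chrV:2453414-2456147 on ce11) had 464, 465 and 466 counts in the P183L libraries, none in the 3 WT libraries, and 1 count in all of the other 9 libraries of the series. It was at least 115-fold higher than WT, with WT set at 3 counts per library. *C55C3.3* had 275, 224 and 265 counts against 0, at least 63.1-fold higher, but was also present in S441L at 110, 113 and 126 counts. It had 12, 7 and 0 counts in WT of batch 2 and 0, 0 and 19 in P37Stop.

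Of the lost genes *gst-34*, a glutathione S-transferase at chrII:15179906-15183239, had 370, 302 and 411 counts in WT and 0 in the 3 P183L libraries, at least 159.5-fold lower, and 344 to 668 counts in each library of the other groups. It lies in a row of related genes on chromosome II whose members were lower as well, with log2 fold changes of -6.95 for *gst-31*, -6.20 for *gst-35* and -2.88 for *gst-39*, and *gst-32* had 1, 3 and 5 counts in P183L against 267, 199 and 268 in WT. These neighbours were named after their values were seen, and of all 42 gst genes tested, on any chromosome, 95.2% were downregulated. *abf-5*, of a family of antibacterial peptides, had 123, 83 and 107 counts in WT and 0 in P183L, at least 46-fold lower. *nspc-16* was lost from 255, 172 and 211 counts, and had 0, 19 and 7 counts in S441L. The remaining lost genes were *T26H5.4*, *F10G2.7*, *C47E12.9*, the receptor genes *srw-17* and *srxa-7*, *linc-61* and *K11D5.2*. Whether any of them is deleted or altered in the strain cannot be read from counts.

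The changes were spread over all chromosomes, unevenly. The share upregulated was 45.3% on chromosome I, 46.1% on II, 40.6% on III, 40.2% on IV, 33.5% on V and 37.3% on X, and the share downregulated was 30.7%, 37%, 35.9%, 40.2%, 49% and 45.2% in the same order. Chromosome V, which is rich in receptor and detoxification families, was thus the most downregulated of the nuclear chromosomes. Of 56 long intergenic noncoding RNAs 34 were downregulated and 11 upregulated, and 554 pseudogenes were balanced, 231 higher to 224 lower. Protein-coding genes upregulated in P183L had a median exon length of 1440 bases, those downregulated 1234 bases and those not called 1453 bases.

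S441L was grown beside P183L, so its libraries give a second reference for the P183L levels. Its strain is listed with the same array, but *rol-6*, *unc-29* and *ajm-1* were far lower in P183L than in S441L. The contrast therefore cannot be taken to hold the array constant. Both contrasts use the same P183L libraries. Of 16553 genes tested, 6203 were higher in P183L than in S441L (37.5%) and 6648 lower (40.2%), together 77.6%. Maternal genes were higher in 27 of 29, early zygotic genes in 46 of 50, sheath genes in 10 of 10, replication genes in 30 of 30 and mitosis genes in 33 of 34, with median log2 differences of 2.29, 4.23, 4.12, 2.99 and 3.05. Neuropeptides were lower in 91 of 99, intestinal genes in 18 of 25, starvation genes in 19 of 22 and ribosomal proteins in 77 of 79, with median log2 differences of -2.79, -2.31, -2.77 and -1.73. Of single genes, the log2 difference of P183L from S441L was 4.63 (SE 0.043) for *noah-1*, 4.44 (SE 0.044) for *mcm-7*, 5.55 (SE 0.44) for *end-1*, -3.30 (SE 0.051) for *unc-54* and -5.29 (SE 0.062) for *asp-1* (adjusted p from 4.77e-19 to 9.19e-09 in edgeR). *eff-1* did not pass the test in this contrast, with a log2 difference of 0.047 (adjusted p = 0.503 in edgeR). By TPM the median of the maternal list was 39 in P183L, 2.03 in WT, 4.76 in S441L, 1.35 in WT of batch 2 and 5.30 in P37Stop. That of the sheath list was 146, 5.97, 8.10, 2.38 and 6.76 TPM in the same order, and that of the mitosis list 108, 6.92, 9.91, 6.71 and 12 TPM. In all 3 lists P183L had the highest median of the 5 groups.

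The lists of adult genes each summed to at most 12.4 CPM in any library of the groups compared. Only 3 of 6 vitellogenins, the yolk genes of the adult gut, passed the filter. *vit-6* was at 0.754, 0.692 and 0.848 CPM in P183L against 5.15, 5.06 and 6.34 CPM in WT, and *vit-1* at 9.04, 10.02 and 10.3 CPM against 0.606, 0.544 and 0.610 CPM. These are low levels in opposite directions for genes that an adult expresses strongly. Both genes were called, with log2 fold changes of -2.85 for *vit-6* and 4.04 for *vit-1*. Only 4 of 50 sperm genes passed the filter, and their list summed to 2.37 to 4.10 CPM in P183L and 2.45 to 2.92 CPM in WT. The adult collagens summed to 1.76 to 2.097 CPM and 7.17 to 7.85 CPM. In the P183L libraries, labelled as L1 larvae, the raised lists included those of the embryo, from its divisions to the sheath, and the furrow collagens. Median levels in P183L and WT were 89.1 and 8.33 TPM for replication and 146 and 5.97 TPM for the sheath. They were 407 and 12.9 TPM for the furrow collagens and 13.9 and 0.717 TPM for the early zygotic genes. Junction and elongation genes were at 168 and 38.7 TPM, but their median log2 fold change of 1.08 lay between the quartiles of all genes. Cuticle collagens as a whole class were not raised (49 upregulated and 63 downregulated of 130, median log2 fold change -0.51). Other lists, not drawn up for a stage of the embryo, were raised as well. Among them were heat shock (8 of 11, median log2 fold change 2.12), coelomocyte (3 of 3, 1.80) and ciliated neuron genes (17 of 25, 0.66). Such lists can still hold genes used in the embryo, as *dyf-7* of the ciliated list is. The ciliated median was not far beyond the shift from scaling. With the 5 reference genes the median of all genes was -0.47 instead of 0.02. Of the lists of the hatched larva, the summed level of the intestine list was 1678 to 1717 CPM in P183L against 21970.0 to 24750.0 CPM in WT, and that of body wall muscle was 8026 to 8182 CPM against 33330.0 to 37220.0 CPM. The pan-neuronal list summed to 1424 to 1443 CPM against 6794 to 7130.0 CPM and the starvation list to 3280.0 to 3351 CPM against 6631 to 7153 CPM, so that these were reduced and still present.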

How the data were processed

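PolyA RNA of pooled whole worms was sequenced in 15 libraries of 5 groups, 3 per group. The values the authors deposited are expected counts (estimated counts per gene, not scaled to depth) for 46911 gene IDs, made after read filtering and alignment, for which their processing notes name fastp, STAR, Picard, HTSeq and DESeq2 and the genome build ce11. The methods name HTSeq for the counts and also a Salmon pseudoalignment, and since part of the values are not whole, which of these made this table is not certain. Whether strand was used is not given in the sources used here. A last row without gene ID, equal to the total of its column (100% of it), was left out. Names, lengths and positions came from the Ensembl annotation of WBcel235, the assembly that ce11 names, and 46857 IDs matched.

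Counts were rounded and tested with edgeR 4.0.16 in R 4.3.3 (quasi-likelihood test, filterByExpr with a minimum count of 10, TMM, Benjamini-Hochberg over all genes tested), and called at adjusted p below 0.05 and log2 fold change beyond 0.5. SE is the log2 fold change divided by the root of the F statistic. S441L was compared with P183L in a fit of the 9 libraries of batch 1. The code was tested on simulated counts in which few genes changed, which does not test the scaling where most genes move. TPM were computed from counts and exon length and serve only for levels. A fold against a group at 0 was bounded with 3 counts per library.

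The genes named are those defining each list, up to 3 called members of each list with the largest change each way, the 15 genes with the largest change each way at 10 CPM or more without overlap, the 5 most abundant of each group, genes absent from a group at a mean of 100 counts in the other, and *eff-1* and *aff-1*. Families of 20 or more tested genes were formed by symbol, and 6 were named each way. The members and lists were chosen with earlier results of these data known. DESeq2 1.42.0, limma 3.58.1 (voom), other scalings, filters, limits, controls, a replicate block and leaving out each library were the alternatives. Replicates differed by more than sampling noise (chi-square per degree of freedom 3.17 to 18.1), so no library was taken as a repeat of another. Values of overlapping, antisense and near-identical genes are uncertain.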

Additional observations from a re-analysis of the deposited data

How the results depend on the processing

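The counts of upregulated and downregulated DEGs stayed within 1.5 times 6389 and 6379 under each of the 20 alternatives, and those of the direct comparison with S441L did so under each of 13. Leaving out each library gave 6397 to 6474 upregulated and 6414 to 6490 downregulated DEGs, and 6137 to 6202 and 6621 to 6646 in the comparison with S441L. DESeq2 called 6191 and 6406, limma voom 6400 and 6364, and no filter on low counts 6932 and 6941. With the replicate number as a block 6347 and 6343 were called, and 6177 and 6613 in the comparison with S441L. The numbers were not taken to pair the samples, since the correlations of the deviations of same-numbered libraries were 0.037, 0.028 and 0.096, and P183L replicate 2 correlated best with WT replicate 1 (0.032).

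With the 5 reference genes the log2 fold change turned to -0.077 for *ajm-1*, -0.36 for *cdc-42*, -0.31 for *che-3*, -0.34 for *eff-1*, -0.39 for *elt-2* and -0.15 for *vab-10*. These genes were not called with TMM. With plain library totals *eff-1* (0.65), *elt-2* (0.60), *che-3* (0.68) and *vab-10* (0.85) were called higher. Against WT of batch 2 it was -1.03 for *ajm-1* and 0.84 for *fbxb-53*, and against WT of both batches -0.35 for *ajm-1*. The cause was not tested. List medians changed sign for pharyngeal muscle (0.14) and translation factors (0.29) with plain library totals, for pharyngeal gland and lining with the reference genes (-0.40), WT of batch 2 (-0.074) or both WT (-0.24), for the proteasome (-0.23) and sperm proteins (-0.14) with the reference genes, for sperm proteins without P183L replicate 1 (-0.064) and for adult collagens against WT of batch 2 (1.84). Over the named genes 3451 values kept direction and call, 30 lost and 20 gained a call and 9 changed sign. Putting genes without counts at their bound moved no list or family median by over 0.066. Genes under about 10 counts per library, such as *nlp-28* or *col-80* in P183L, limit the precision of the deepest decreases.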
